A study of Mus musculus with 48 samples.

Results

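The interaction of preformed fibril (PFF) injection with inspired oxygen was described in the substantia nigra (SN) of 42 mice of the 48 that were sequenced. The members were all mice kept in the batch-corrected table. They formed 4 groups: 11 monomer mice and 12 PFF mice breathing 21% O2, and 9 monomer mice and 10 PFF mice breathing 11% O2. All were male C57BL/6J mice that received a unilateral injection of α-synuclein, into the right striatum per the study's methods, as monomer in the controls or as PFFs, so no group lacked an injection or carried a transgene. The interaction is the PFF effect at 11% O2 minus the PFF effect at 21% O2, on the log2 scale. A positive value means that PFF mice stood higher against their monomer controls at 11% than at 21% O2. The injection took place at 121 days of age, and the SN was collected 90 or 91 days later, or 98 days later in 1 mouse. The study's methods give 12 weeks of 11% O2. The deposited design text instead gives 6 weeks of 21% O2 before 6 weeks of 11% O2. The study describes such a delayed start in another experiment, whose listed groups held no monomer mice at 11% O2. With 9 monomer mice at 11% O2, the 4 groups here match the design with 12 weeks of exposure, although the deposited text differs.

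α-Synuclein is a presynaptic protein whose aggregates mark Parkinson's disease, and PFFs seed the aggregation of the protein that a neuron makes itself. Fibrils placed in the striatum reach dopaminergic neurons of the SN through their axons. Cells meet misfolded protein with heat shock factor 1 (HSF1), which switches on cytosolic chaperones, and with the unfolded protein response of the endoplasmic reticulum (ER). They meet low oxygen with hypoxia-inducible factors (HIFs), which switch on vascular growth, glycolysis and iron uptake. Cold-inducible RNA-binding proteins respond in the opposite way to temperature as heat shock genes do.

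The labels put the mice in 3 batches, each with its own dates of birth, injection and collection. Batch 1 held all 4 groups, whereas batch 2 held no monomer mice at 11% O2 and batch 3 held no monomer mice at 21% O2. Batch and oxygen can therefore be told apart in monomer mice only within batch 1. Before batch correction each mouse had between 12902996 and 17120921 counts on genes. *Th*, the defining gene of dopaminergic neurons, was measured in every group but spread widely, from 131 to 991 TPM (transcript abundance scaled to a fixed total per mouse) in monomer mice at 21% O2 and from 252 to 1027 in PFF mice at 11% O2. In bulk tissue, fewer cells of a type and less RNA per cell cannot be told apart.

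Of 14839 genes tested, 318 were called for the interaction (2.14%), which required an adjusted p under 0.05 (edgeR with Benjamini–Hochberg adjustment) and a log2 difference beyond 0.25. The PFF effect was more negative at 11% O2 for 155 of them (1.04%) and more positive for the rest (1.1%). The count depended on the handling of batch and on the mice included: it was 152 on uncorrected counts of all 48 mice with a batch term, with 80 lost and 55 opposed responses in the classes defined next, and 84 with ComBat-seq and additive covariates, with 55 and 20. A ComBat-seq run that kept the 4 groups gave 99.9% of the deposited values, against 32.5% for additive covariates. The deposited values thus match a correction that keeps the differences between the 4 groups, the interaction among them. The main test used them without a batch term. Its p-values leave out the uncertainty of the batch adjustment and may be too small. At 21% O2, 549 genes were called between PFF and monomer mice (3.7%), 340 higher (2.29%) and 209 lower (1.41%) with PFF, and 22.4% had an unadjusted p under 0.05. At 11% O2, edgeR called 0 genes and DESeq2 called 1, while 581 genes (3.92%) had an unadjusted p under 0.05. The threshold of the interaction ran between *Cbfa2t3* (0.41, adjusted p = 0.0499) and *Efnb2* (0.36, adjusted p = 0.0503) among genes more positive at 11% O2. Among genes more negative it ran between *Map7* (-0.29, adjusted p = 0.0499) and *Rtel1* (-0.26, adjusted p = 0.0503).

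The 318 genes were sorted by their responses in each oxygen level. A response was named lost where it was called at 21% O2 and had an unadjusted p of 0.05 or more at 11% O2. It was named opposed where both responses had an unadjusted p under 0.05 and opposite signs. Of the 318 genes, 176 had a lost response, 69 of them lower and 107 higher with PFF at 21% O2. Another 100 had an opposed response, 70 lower and 30 higher with PFF at 21% O2. A further 37 genes responded at 21% O2 alone without being called there, and 5 responded at 11% O2 alone. The opposed class rests on unadjusted p-values: only 38 of its 100 genes were called at 21% O2, 20 lower and 18 higher, and the smallest adjusted p among them at 11% O2 was 0.244.

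**Figure D1:**
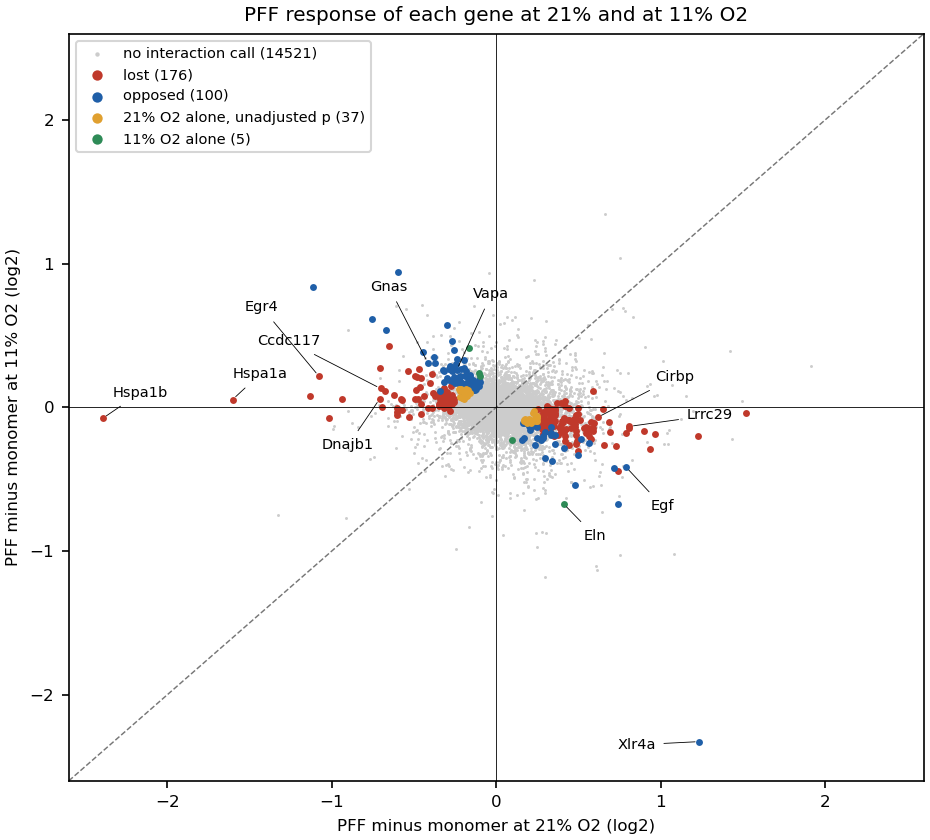
PFF minus monomer at 21% O2 (horizontal axis, log2) against PFF minus monomer at 11% O2 (vertical axis, log2) for the 14839 genes tested, one point per gene, with genes called for the interaction in colour and a dashed line where both responses would be equal. The 176 lost genes lie along the horizontal axis and the 100 opposed genes in the upper left and lower right.

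The level of each class across the 4 groups is easiest to read against monomer mice at 21% O2. For the 69 lost genes that were lower with PFF, the median log2 difference from these mice was -0.39 in PFF mice at 21% O2, -0.47 in monomer mice at 11% O2 and -0.39 in PFF mice at 11% O2. For the 107 lost genes that were higher with PFF, the same medians were 0.42, 0.41 and 0.31. In both sets the other three groups lay close together and apart from monomer mice at 21% O2. The 70 opposed genes that were lower with PFF at 21% O2 followed another course, with medians of -0.22 and -0.23 in PFF mice at 21% O2 and monomer mice at 11% O2, and -0.035 in PFF mice at 11% O2. With both treatments together these genes stood near the level of mice with neither. The 30 opposed genes that were higher had medians of 0.32, 0.42 and 0.17. All of these differences share the monomer mice at 21% O2, and the classes were defined from them, so the medians are a description without a test.

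**Figure D2:**
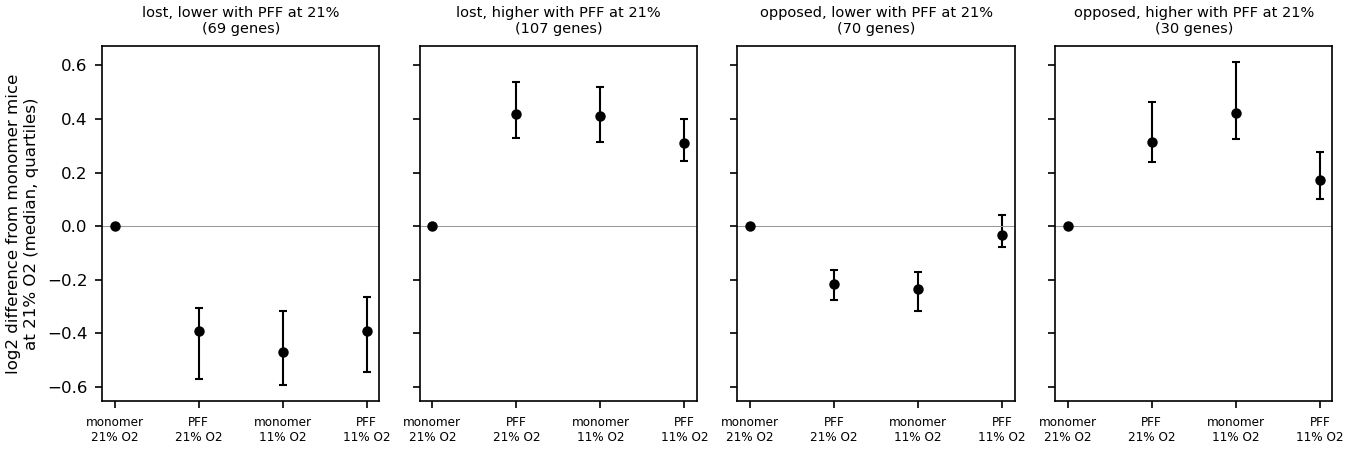
Log2 difference of each group from monomer mice at 21% O2 (vertical axis) for the 4 groups (horizontal axis) in the lost and opposed classes, split by the direction of the PFF response at 21% O2; points are medians over genes and bars run from the lower to the upper quartile. In the lost classes PFF mice at 11% O2 sit at -0.39 and 0.31, and in the opposed classes at -0.035 and 0.17.

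Heat shock genes formed a group among the lost responses. Of 20 listed targets of HSF1, 7 were called for the interaction, all 7 more positive at 11% O2 and all 7 of the lost class, beside 1.1% of all genes in that direction. The 7 were *Hspa1a*, *Hspa1b*, *Dnajb1*, *Hsph1*, *Ahsa2*, *Dedd2* and *Chordc1*. This list and the others were chosen with earlier results of these data known, so their shares of calls are no independent evidence. The interaction was above 0 for all 20 heat shock genes, with a median of 0.22 against -0.001 over all genes tested. A shared sign was not particular to lists with calls. All 12 microglia genes and all 8 choroid plexus genes lay below 0 and none was called, while 6 of 16 cholesterol genes, also without a call, lay above 0. The median PFF response of the heat shock list was -0.21 at 21% O2 and 0.025 at 11% O2.

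*Hspa1a* and *Hspa1b* encode the stress-inducible HSP70, *Hsph1* its nucleotide exchange partner HSP110, and *Chordc1* a cochaperone of HSP90. Of the 20 genes, 17 had a promoter window in RefSeq (GRCm38.p6, 250 bases before to 50 after the start), and 10 of these held GAANNTTC, 2 facing units of the element that HSF1 binds, which reads the same on both strands. The letters were found in the windows of 827 of the 11673 genes tested that had one (7.08%), in 9 of the 53 lost genes that were lower with PFF (17%) and in 5 of the 84 that were higher (5.95%). The 9 include the listed heat shock genes *Hspa1a*, *Hspa1b*, *Hsph1* and *Chordc1*, and the windows of *Hspa1a* and *Hspa1b* are nearly alike. The share of 17% is therefore not a trait of the class apart from that list. The windows of the called heat shock genes that held the letters are shown with them in capitals, to show where the element stands in them. They lie at chr17:34972107-34972406 on the minus strand, chr17:34959189-34959488 on the minus strand, chr5:149636287-149636586 on the minus strand and chr9:18292017-18292316 on the plus strand, and are written 5′ to 3′ on the strand of the gene.
Hspa1a: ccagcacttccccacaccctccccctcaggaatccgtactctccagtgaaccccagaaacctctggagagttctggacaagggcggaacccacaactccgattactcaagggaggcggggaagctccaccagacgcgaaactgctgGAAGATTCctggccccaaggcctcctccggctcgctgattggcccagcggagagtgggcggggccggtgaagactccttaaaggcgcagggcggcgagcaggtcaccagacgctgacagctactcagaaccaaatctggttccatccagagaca
Hspa1b: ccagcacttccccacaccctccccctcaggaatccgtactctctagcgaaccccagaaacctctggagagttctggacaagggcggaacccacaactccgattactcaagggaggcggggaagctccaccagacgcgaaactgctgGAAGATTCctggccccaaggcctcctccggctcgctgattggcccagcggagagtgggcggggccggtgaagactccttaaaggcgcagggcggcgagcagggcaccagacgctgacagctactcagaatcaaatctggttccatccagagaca
Hsph1: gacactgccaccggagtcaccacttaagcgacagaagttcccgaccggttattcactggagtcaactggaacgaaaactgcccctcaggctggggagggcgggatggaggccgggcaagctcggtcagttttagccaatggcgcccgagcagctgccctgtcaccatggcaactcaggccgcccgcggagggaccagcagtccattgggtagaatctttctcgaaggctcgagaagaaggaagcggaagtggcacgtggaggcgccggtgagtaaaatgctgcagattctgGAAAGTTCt
Chordc1: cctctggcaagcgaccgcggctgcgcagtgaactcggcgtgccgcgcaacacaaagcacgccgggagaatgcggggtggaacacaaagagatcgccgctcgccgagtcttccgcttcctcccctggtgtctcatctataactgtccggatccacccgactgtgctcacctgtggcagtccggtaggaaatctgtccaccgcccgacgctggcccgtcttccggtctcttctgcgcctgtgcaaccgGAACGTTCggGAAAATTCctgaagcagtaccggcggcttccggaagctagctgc
The windows of *Hspa1a* and *Hspa1b* differed at 4 of 300 bases, and the transcripts are so alike that reads may have been split between them, which makes both levels uncertain. *Hsph1* has more than one listed start, and one window is shown. The windows of *Dnajb1*, *Ahsa2* and *Dedd2* did not hold these letters.

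*Hspa1a* ran from 19.0 to 106 TPM in monomer mice at 21% O2, with a median of 55.4. In PFF mice at 21% O2 it ran from 9.30 to 39.1 TPM (median 16.9), in monomer mice at 11% O2 from 9.89 to 24.4 (median 13.8), and in PFF mice at 11% O2 from 10.7 to 19.9 (median 14.5). All 12 PFF mice at 21% O2 lay below the median of their controls, and 7 lay below every control. The interaction was 1.66 (SE 0.345, adjusted p = 0.0052). *Hspa1b*, whose interaction was 2.32 (SE 0.564, adjusted p = 0.017), spread more widely, from 16.4 to 266 TPM in monomer mice at 21% O2.

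*Dnajb1* (chr8:83608193-83612653 of GRCm38), an HSP40 cochaperone that hands clients to HSP70, separated the groups more tightly. It ran from 118 to 190.5 TPM (median 146) in monomer mice and from 73.3 to 111 TPM (median 84.7) in PFF mice at 21% O2, with no overlap. At 11% O2 it ran from 70.5 to 92.3 TPM (median 81.3) in monomer and from 74.4 to 92.6 TPM (median 82.2) in PFF mice, and these ranges nearly coincided. Its PFF response was -0.71 at 21% O2 and 0.057 at 11% O2, where the 95% confidence interval ran from -0.098 to 0.21. The interaction was 0.77 (SE 0.104, adjusted p = 2.3e-05).

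*Ahsa2*, a relative of the HSP90 activator AHA1, had median TPM of 49.4 in monomer and 29.8 in PFF mice at 21% O2, and of 28.7 and 29.8 at 11% O2, with an interaction of 0.70 (SE 0.111, adjusted p = 0.00027). *Hsph1* had medians of 207.9 and 147 TPM at 21% O2 and of 132 and 136 at 11% O2, with an interaction of 0.54. *Dedd2*, which encodes a death effector domain protein, ran from 20.8 to 31.5 TPM in monomer mice and from 15.5 to 20.1 in PFF mice at 21% O2, again without overlap. At 11% O2 its medians were 17.4 and 16.5 TPM. Among all 14839 genes the PFF and monomer mice failed to overlap at 21% O2 for 6 (0.0404%), of which 5 were called for the interaction, and at 11% O2 for 0. These 5 were *Ccdc117*, *Dnajb1* and *Dedd2*, lower with PFF, and *Lrrc29* and *Fzd5*, a Wnt receptor named here after its values were seen, higher with PFF.

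The 13 other heat shock genes were not called. *Hspb1*, the small heat shock protein HSP27, had a wide value of 0.70 (SE 0.261, adjusted p = 0.15), and *Dnaja1* reached an adjusted p of 0.047 with a log2 difference of 0.22, under the threshold. Constitutive members moved less, with 0.17 for *Hspa8* and 0.13 for *Hsp90aa1*. From batch 1 the median of the list was 0.15, and from batches 2 and 3 it was 0.29. The 7 calls became 3 when batch 2 or batch 3 was left out and 0 in batch 1 alone, where 18 of the 20 genes were still above 0.

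**Figure D3:**
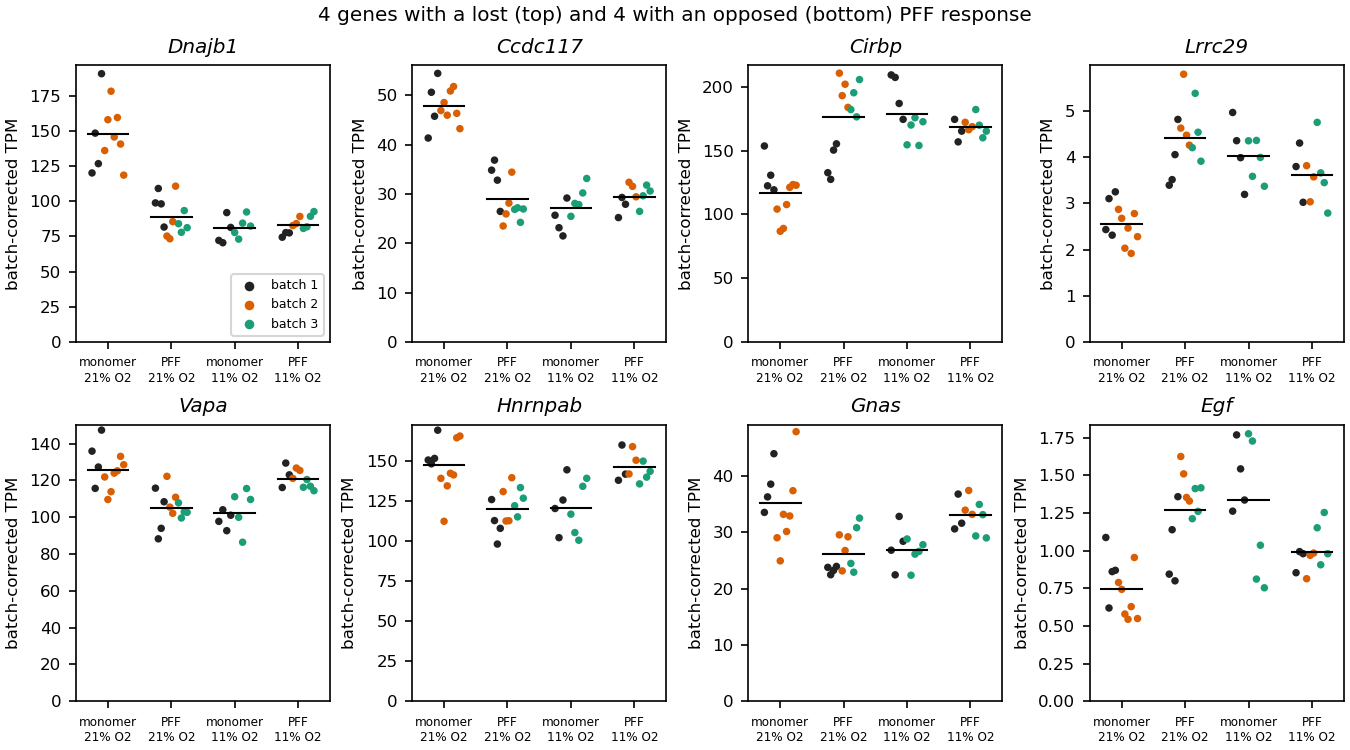
Batch-corrected TPM of each mouse (vertical axis) in the 4 groups (horizontal axis) for 4 genes with a lost response (*Dnajb1*, *Ccdc117*, *Cirbp*, *Lrrc29*) and 4 with an opposed response (*Vapa*, *Hnrnpab*, *Gnas*, *Egf*); each point is a mouse, coloured by batch, and lines are means. For *Dnajb1* the 11 monomer mice at 21% O2 lie between 118 and 190.5 and the 12 PFF mice at 21% O2 lie between 73.3 and 111, while for *Vapa* PFF mice at 11% O2 return to between 114 and 129.

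The smallest p of the interaction belonged to a gene outside the lists. *Ccdc117* (chr11:5528887-5542187), a coiled-coil protein of little-known function, ran from 41.4 to 54.5 TPM (median 46.9) in monomer mice at 21% O2 and from 23.5 to 36.9 (median 27.1) in PFF mice. At 11% O2 it ran from 21.5 to 33.2 (median 27.9) in monomer and from 25.2 to 32.4 (median 29.5) in PFF mice. The groups at 21% O2 did not overlap, and those at 11% O2 did. The interaction was 0.83 (SE 0.10, adjusted p = 2.1e-06), with 0.69 from batch 1 and 0.79 from batches 2 and 3.

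ER chaperones were the other protein-folding group with lost responses. Of 16 listed genes, 3 were called, all more positive at 11% O2 and all lost, beside 1.1% of all genes in that direction, and the interaction was above 0 for all 16, with a median of 0.24. The median PFF response was -0.24 at 21% O2 and 0.014 at 11% O2. *Hspa5*, the ER chaperone BiP, ran from 295 to 478 TPM (median 376) in monomer and from 210.6 to 386 (median 263) in PFF mice at 21% O2. At 11% O2 the medians were 264 and 261 TPM. The PFF mice at 21% O2 overlapped their controls, and the interaction was 0.48 (SE 0.121, adjusted p = 0.022). *Creld2*, an ER stress gene of the protein disulfide isomerase type, had an interaction of 0.64 (adjusted p = 0.027), and *Xbp1*, the transcription factor of this response, had 0.36 (adjusted p = 0.046). The values were larger in batches 2 and 3. The median of the list was 0.030 in batch 1 and 0.42 in batches 2 and 3, *Creld2* had 0.10 and 1.00, and *Hspa5* had 0.13 and 0.71. In batch 1 the PFF response at 21% O2 was near 0, at 0.026 for *Hspa5*, 0.035 for *Creld2* and -0.019 for *Xbp1*. In batch 2 it was -0.74, -0.96 and -0.54. On uncorrected counts with a batch term, edgeR called 0 of the 16, of which 15 stayed above 0. Leaving out 1 mouse changed the number called to between 2 and 5, with 5 without monomer replicate 3 at 11% O2.

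On a list of further HIF targets, *P4ha1* and *P4ha2*, catalytic subunits of collagen prolyl 4-hydroxylase, had lost responses. In monomer mice both stood lower at 11% than at 21% O2, with log2 differences of -0.44 and -0.52, against a list median of 0.092. *P4ha1* ran from 58.9 to 103 TPM (median 86.0) in monomer mice and from 38.9 to 73.6 (median 49.3) in PFF mice at 21% O2. At 11% O2 the ranges were 54.0 to 70.9 and 54.3 to 67.7 TPM, with medians of 60.3 and 60.8. Its interaction was 0.70 (SE 0.128, adjusted p = 0.0019), with 0.22 from batch 1 and 0.88 from batches 2 and 3. The PFF response of *P4ha1* at 21% O2 was -0.14 in batch 1 and -0.94 in batch 2. *P4ha2* had an interaction of 0.52 (SE 0.107, adjusted p = 0.0049). The other 18 of the 20 genes on this list were not called, beside 1.1% of all genes called in that direction, and its median was 0.040.

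Genes that follow neuronal activity and glucocorticoids each had 2 lost members, of 15 and 12 tested, beside 1.1% of all genes called in that direction. Of 15 immediate early genes, *Egr4* had an interaction of 1.30 (SE 0.300, adjusted p = 0.011) and *Nr4a3* of 1.00 (SE 0.217, adjusted p = 0.0071). Both are transcription factors. *Egr4* was low, with medians of 1.64 and 0.81 TPM in monomer and PFF mice at 21% O2 and of 0.94 and 0.90 at 11% O2. It kept its call in 11 of 17 other settings. *Nr4a3* had medians of 3.09 and 1.65 TPM in monomer and PFF mice at 21% O2 and of 1.81 and 1.68 at 11% O2, and all 12 PFF mice at 21% O2 lay below the median of their controls. Of 12 genes that glucocorticoids induce, *Errfi1*, an inhibitor of the EGF receptor, had 0.39 (SE 0.0842, adjusted p = 0.0078) and *Tsc22d3*, which encodes GILZ, had 0.34 (SE 0.0960, adjusted p = 0.043). The medians of these lists were 0.20 and 0.18. *Tsc22d3* lost its call in 23 of 42 fits that left out 1 mouse.

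Lost responses that were higher with PFF at 21% O2 were led by *Lrrc29* (chr8:105312265-105326278), a leucine-rich repeat gene. It ran from 1.92 to 3.25 TPM (median 2.46) in monomer mice and from 3.39 to 5.8 (median 4.37) in PFF mice at 21% O2, without overlap. At 11% O2 the medians were 3.99 and 3.62 TPM and the ranges overlapped. The interaction was -0.94 (SE 0.146, adjusted p = 0.00022).

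Of 6 listed cold-inducible RNA-binding genes and CLK kinases, *Cirbp* and *Rbm3* were called more negative at 11% O2, beside 1.04% of all genes, and both encode RNA-binding proteins induced by mild cold. *Cirbp* (chr10:80165985-80172786) ran from 86.8 to 154 TPM (median 121) in monomer and from 128 to 210.9 (median 183.2) in PFF mice at 21% O2. At 11% O2 it ran from 154 to 209 (median 174.6) in monomer and from 157 to 182.3 (median 168) in PFF mice. All 12 PFF mice at 21% O2 lay above the median of their controls, against 1 of 10 at 11% O2. Its interaction was -0.69 (SE 0.116, adjusted p = 0.00065), with -0.40 from batch 1 and -0.84 from batches 2 and 3. *Rbm3* had -0.31 (SE 0.0820, adjusted p = 0.028), and the median of the 6 genes was -0.078.

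*Tfrc*, the transferrin receptor that takes up iron, was the only called gene of 11 for iron uptake, storage and export. Of all genes, 1.04% were called in its direction, more negative at 11% O2. *Tfrc* ran from 43.9 to 60.2 TPM (median 56.4) in monomer and from 57.8 to 88.3 (median 69.9) in PFF mice at 21% O2. In monomer and PFF mice at 11% O2 the ranges were 69.8 to 93.2 and 68.3 to 91.6 TPM, with medians of 74.0 and 79.8. The PFF response was 0.40 at 21% O2 and 0.029 at 11% O2, and the interaction was -0.37 (SE 0.0993, adjusted p = 0.034). It was -0.10 in batch 1 and -0.65 from batches 2 and 3, and 11 of 42 fits without 1 mouse lost the call. *Slc40a1*, the iron exporter ferroportin, was not called, with an interaction of -0.21 (SE 0.143, adjusted p = 0.53).

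The other named genes of this class were *Tgfbr3l* (-0.80), a relative of a TGF-β co-receptor, *Arl5c* (-0.999), a small GTPase, and *Prkab1* (-0.50), the β1 subunit of the energy sensor AMPK. *Prkab1* had medians of 18.9 and 24.4 TPM at 21% O2 and of 27.1 and 25.7 at 11% O2. *Tgfbr3l* was -0.26 in batch 1 and -1.25 from batches 2 and 3. Of 10 oligodendrocyte genes, all with an interaction below 0, *Opalin* was lost and *Mog* opposed, beside 1.04% of all genes called in that direction. *Opalin*, a myelin membrane protein, ran from 48 to 95.8 TPM (median 76.5) in monomer and from 82.1 to 157 (median 115) in PFF mice at 21% O2, and its medians at 11% O2 were 127 and 113. Its interaction was -0.71 (SE 0.153, adjusted p = 0.0073), with -0.33 from batch 1 and -0.86 from batches 2 and 3. The PFF response of *Opalin* at 21% O2 was 0.053 in batch 1 and 0.93 in batch 2. *Mog*, a surface protein of myelin, had -0.33 (SE 0.0865, adjusted p = 0.027). The summed level of the 10 oligodendrocyte genes had medians of 11217 TPM in monomer and 11636 in PFF mice at 21% O2, and of 12395 and 11040 at 11% O2, with ranges that overlapped. The part of such a shift in the values of *Opalin* and *Mog* was not tested.

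Opposed responses were mostly of genes that fell with PFF at 21% O2 and stood higher with PFF at 11% O2, 70 of 100. *Vapa* (chr17:65578327-65613555), an ER protein that tethers the ER to other membranes, ran from 110 to 147 TPM (median 125) in monomer and from 88.2 to 122 (median 104) in PFF mice at 21% O2. At 11% O2 it ran from 86.4 to 116 (median 101) in monomer and from 114 to 129 (median 121) in PFF mice. All 12 PFF mice lay below the median of their controls at 21% O2, and all 10 lay above it at 11% O2, where 9 were above every control. The responses were -0.24 and 0.26, and the interaction was 0.50 (SE 0.0726, adjusted p = 8.4e-05). In the fit with a mean for each group and batch, *Vapa* was the only gene called from batch 1, with 0.60 (adjusted p = 0.019), against 0.26 from batches 2 and 3.

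*Hnrnpab* (chr11:51600100-51606847), a nuclear RNA-binding protein that accompanies mRNA transport in neurons, had medians of 148 and 119 TPM in monomer and PFF mice at 21% O2 and of 120 and 143 at 11% O2. All 10 PFF mice at 11% O2 lay above the median of their controls, and the interaction was 0.57 (SE 0.0908, adjusted p = 0.00032). *Gnas* (chr2:174284320-174346744), whose locus encodes the stimulatory G protein α-subunit, had medians of 33.5 and 24.2 TPM at 21% O2 and of 26.8 and 33.1 at 11% O2. Its interaction was 0.73 (SE 0.119, adjusted p = 0.00037), with 0.90 from batch 1 and 0.56 from batches 2 and 3. For both genes the PFF mice at 11% O2 had medians near those of monomer mice at 21% O2.

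*Josd1*, a deubiquitinating enzyme, had an interaction of 0.46 (SE 0.0705, adjusted p = 0.00022), made of -0.34 at 21% O2 and 0.11 at 11% O2. *Rab5if*, a factor of membrane protein and respirasome assembly, had 0.53 (SE 0.0852), made of -0.26 and 0.27. *Pnrc1*, a nuclear receptor coactivator, had 0.47 (SE 0.0797) and *Bloc1s4*, a subunit of the BLOC-1 complex of lysosome-related organelles, had 0.56 (SE 0.0982). The adjusted p of these 3 were 0.00032, 0.00065 and 0.0010. All 10 PFF mice at 11% O2 lay above the median of their controls for *Josd1*, *Pnrc1* and *Bloc1s4*, and 9 did for *Rab5if*.

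Of the 30 opposed genes that were higher with PFF at 21% O2, *Egf* (chr3:129677565-129755316), epidermal growth factor, had the smallest p. It was low, at 0.544 to 1.09 TPM (median 0.743) in monomer and 0.799 to 1.62 (median 1.34) in PFF mice at 21% O2. At 11% O2 it ran from 0.753 to 1.78 (median 1.34) in monomer and from 0.813 to 1.25 (median 0.979) in PFF mice. All 12 PFF mice lay above the median of their controls at 21% O2 and all 10 below it at 11% O2, although every PFF mouse at 11% O2 lay within the range of its controls. The interaction was -1.20 (SE 0.201, adjusted p = 0.00056).

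*Lefty1*, a secreted inhibitor of Nodal signalling, had -0.81 (SE 0.147, adjusted p = 0.0016), with medians of 5.86 and 8.26 TPM at 21% O2 and of 7.51 and 6.18 at 11% O2. *Cwc22*, a splicing factor that helps to deposit exon junction complexes, had -0.47 (SE 0.0812), and *Ccdc9b*, a coiled-coil gene, had -0.47 (SE 0.0813). *Thap3*, a zinc finger gene, had -0.39 (SE 0.0728). The largest value of the class in size belonged to *Xlr4a*, an X-linked gene named here after its values were seen, at -3.56 (SE 0.745, adjusted p = 0.0056). It ran from 0.158 to 14.7 TPM among monomer mice at 11% O2 alone, and was -1.05 in batch 1 and -4.22 from batches 2 and 3.

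*Pdgfrb*, the pericyte receptor for platelet-derived growth factor, was the only called gene of 8 pericyte genes and was opposed. Of all genes, 1.04% were called in its direction, more negative at 11% O2. *Pdgfrb* ran from 12.6 to 16.6 TPM (median 13.5) in monomer and from 13.2 to 20.2 (median 15.1) in PFF mice at 21% O2. In monomer and PFF mice at 11% O2 it ran from 16.4 to 26.7 (median 19.6) and from 15.3 to 19.0 (median 16.8), and all 10 PFF mice lay below the median of their controls. The interaction was -0.39 (SE 0.101, adjusted p = 0.027). The median of the 8 genes was -0.20. None of 4 tested arterial smooth muscle genes was called, with a median of -0.90. *Acta2* had -1.71 (SE 0.646, adjusted p = 0.16) and *Myh11* -1.14 (SE 0.471, adjusted p = 0.21). The summed level of this list had a median of 113 TPM in monomer mice at 11% O2, with a range of 46.0 to 176.7, against 75.6, 79.1 and 71.6 in monomer and PFF mice at 21% O2 and PFF mice at 11% O2. Its part in the result for *Pdgfrb* was not tested.

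The 5 genes with a response at 11% O2 alone included *Cmas* (0.31), which activates sialic acid, *Dcun1d5* (0.35), which helps to attach NEDD8 to cullins, *Ndor1* (-0.32), an iron–sulfur cluster assembly reductase, and *Eln* (-1.08), elastin. Of these, *Dcun1d5* ran from 33.8 to 50.6 TPM (median 44.0) in monomer and from 45.3 to 58.4 (median 51.1) in PFF mice at 11% O2, with all 10 above the median of their controls. Its medians at 21% O2 were 52.9 and 48.1 TPM. For *Eln*, monomer mice at 11% O2 ran from 2.35 to 17.2 TPM and PFF mice from 2.55 to 5.79, and the interaction was -0.39 in batch 1 and -1.47 from batches 2 and 3. *Ndor1* and *Eln* each kept the call in 22 of 42 fits without 1 mouse, and in 8 and 6 of 17 other settings.

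Across the 29 gene lists, 9 held a called gene and 20 held none. The 7 HIF targets that the study names, chosen by it on these samples and so no independent evidence, had a median interaction of -0.005, with a median difference between 11% and 21% O2 of 0.89 in monomer and 0.92 in PFF mice. *Vegfa*, the vascular growth factor, had medians of 129 and 115 TPM in monomer and PFF mice at 21% O2 and of 238 and 216 at 11% O2, with an interaction of 0.049 and a 95% confidence interval from -0.092 to 0.19. *Ldha*, lactate dehydrogenase A, had 0.060 (interval -0.12 to 0.24). *Kdr*, a receptor for VEGF, had -0.18 (interval -0.44 to 0.080). *Cxcl12*, a chemokine, had -0.43 (interval -0.77 to -0.10, adjusted p = 0.16) and was not called over all genes.

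*Adm*, *Slc16a3* and *Ndufa4l2* had wider intervals, from -0.51 to 0.43, from -0.47 to 0.47 and from -0.35 to 0.36. *Aif1*, a microglial gene, had -0.17 (interval -0.56 to 0.21). *Th* had -0.096, with an interval from -1.04 to 0.84. None of 14 dopaminergic neuron genes, 12 microglia genes, 36 complex I subunits, 14 ATF4 genes of the integrated stress response or 13 NRF2 and glutathione genes was called, with medians of -0.076, -0.13, -0.049, -0.037 and 0.006. All 14 synaptic and neuronal structure genes had an interaction above 0, with a median of 0.12, and none was called. Of 13 clock repressors and D-box output genes none was called either, although 7 had an unadjusted p under 0.05, beside 15.4% of all genes.

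**Figure D4:**
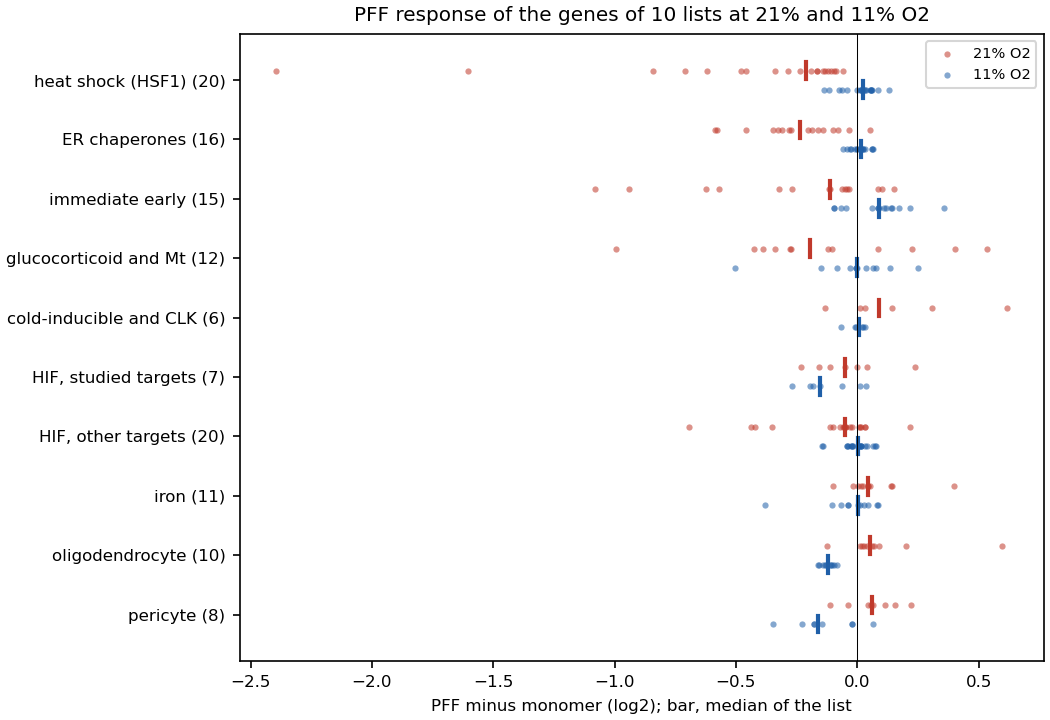
PFF minus monomer (horizontal axis, log2) of each gene of 10 lists (vertical axis, with the number of genes tested) at 21% O2 in red and at 11% O2 in blue; each point is a gene and each bar is the median of the list. The medians of the heat shock list lie at -0.21 and 0.025 and those of the ER chaperones at -0.24 and 0.014.

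Markers of neighbouring tissue were uneven between mice. Choroid plexus genes, summed, reached 343 TPM in a PFF mouse at 21% O2, with medians of 41.4 and 45.4 TPM in monomer and PFF mice at 21% O2 and of 63.3 and 46.4 at 11% O2. None of these 8 genes was called, and their median interaction was -0.65, with 0.21 from batch 1 and -0.79 from batches 2 and 3. Leptomeningeal genes summed to medians between 114 and 128 TPM in the 4 groups, and none of 10 was called. Red cell genes had medians of 1130 and 1425 TPM at 21% O2 and of 2171 and 1961 at 11% O2, and none was called. Whether these cells take part in the interaction of other genes was not tested.

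The interaction can be estimated from 2 sets of mice that share no animal, the 15 mice of batch 1 and 20 mice of batches 2 and 3. In the second set the response at 21% O2 was taken from batch 2 and that at 11% O2 from batch 3. Oxygen and batch cannot be told apart there, so a PFF effect that differs between batches would enter that estimate. Over all genes the estimates correlated at a Pearson r of 0.064. On the counts before correction, 1 gene of 14793 was called from batch 1 (0.00676%) and 210 from batches 2 and 3 (1.42%). Of these 210, 151 had the same sign in batch 1 (71.9%), against 52.1% of all genes. In batch 1, 31 of them reached an unadjusted p under 0.05 with the same sign and 4 with the opposite sign, beside 8.85% of all genes in either direction. The 103 that were positive (0.696%) had a median of 0.44 in batches 2 and 3 and of 0.068 in batch 1, and the 107 that were negative (0.723%) had -0.56 and -0.13. These genes were chosen in batches 2 and 3, and their medians were nearer 0 in batch 1. By edgeR, 0 genes were called for the difference between both estimates, while 1443 genes (9.75%) had an unadjusted p under 0.05 for it.

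Fitted alone, batch 1 gave 11 genes, all more positive at 11% O2 and 8 of them opposed. These were *Vapa*, *Gnas*, *Hnrnpab*, *Pnrc1*, *Timm29*, *Naa30*, *Tmem158* and *Ube2j2* in the opposed class, and *Ddit4*, *Per1* and *Arl4d* in the lost class, of which those outside the rule for named genes were chosen after their values were seen. *Vapa*, *Hnrnpab*, *Gnas* and *Pnrc1* were called in all 17 other settings tried over the main contrast and in all 42 fits without 1 mouse. In the fit with a mean for each group and batch they were not called from batches 2 and 3, with adjusted p of 0.15, 0.082, 0.10 and 0.28, and from batch 1 it called *Vapa* alone of the 4. None of the 7 called heat shock genes was called in batch 1 alone, where *Dnajb1* had 0.48 and *Hspa1a* 1.61.

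**Figure D5:**
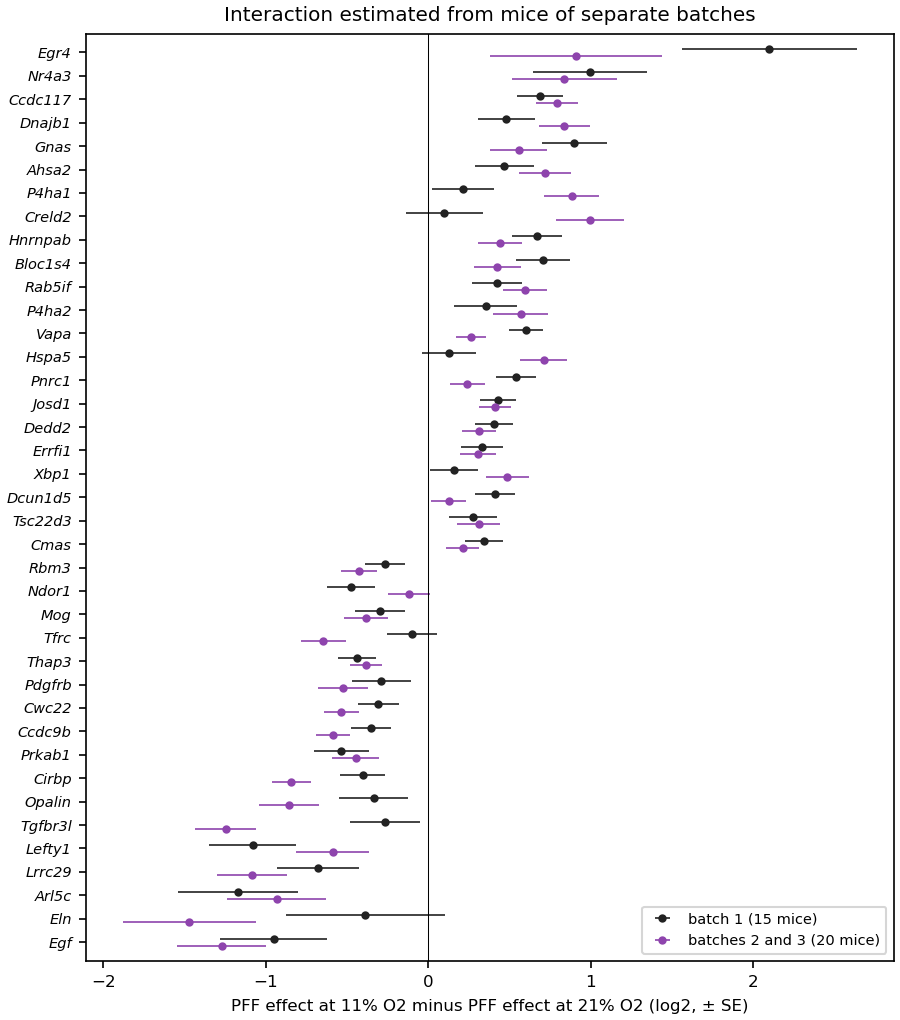
Interaction (horizontal axis, log2, with bars of 1 SE) of the 39 called genes named by the rule (vertical axis), estimated from the 15 mice of batch 1 in black and from 20 mice of batches 2 and 3 in purple, on counts before correction. Every gene has the same sign in both, but the genes were chosen by a fit that included both sets of mice. The shared sign is therefore no independent evidence, and over all genes 52.1% share it. *Creld2* lies at 0.10 in batch 1 and 1.00 in batches 2 and 3, *Hspa5* at 0.13 and 0.71, and *Tfrc* at -0.10 and -0.65.

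Transcript features that the classes were not defined by are given without a test. The opposed genes lower with PFF at 21% O2 had a median GC content of 53.3% and a median transcript length of 2454 bases, against 50.3% and 3192 bases over all genes tested. The lost genes lower with PFF had 50.9% and 3860 bases, and the lost genes higher with PFF had 49.3% and 2578 bases. Correcting for GC content in 20 bins gave 387 calls, and for length 325, in place of 318. The E-box CACGTG, a motif of clock and HIF factors that reads the same on both strands, stood in 7.55% of the windows of lost genes lower with PFF and in 9.80% of those of opposed genes lower with PFF, against 11.2% of all windows.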

How the data were processed

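Messenger RNA from the SN of each mouse was sequenced by the authors, with 1 library per mouse. According to the methods, reads were aligned with STAR (version 2.7.5a) to ribosomal DNA and then to mm10 with GENCODE vM24, duplicates were removed with Picard (version 2.21.9), and featureCounts (version 2.0.1) counted reads per gene without a stated strand setting. The deposited counts cover 55385 genes in 48 mice. The authors left out 6 mice on principal components and adjusted the counts of 19601 protein-coding genes for batch with ComBat-seq. The methods name oxygen and injection as covariates, and a rerun that kept the 4 groups gave 99.9% of the deposited values. The deposited TPM values were computed by the authors from the counts before and after this adjustment, with gene lengths that the sources used here do not give. Adjusted counts carry the fitted batch model, so their spread between mice is not that of the reads.

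The main test was run in edgeR on the corrected table (version 4.0.16, R version 4.3.3; TMM scaling, quasi-likelihood test, filterByExpr by group) with 1 mean for each of the 4 groups and no batch term. A call required a p under 0.05 after Benjamini–Hochberg adjustment over 14839 genes and an absolute log2 difference above 0.25. All p-values are 2-sided and compare single mice. Levels are corrected TPM. Estimates within batches came from counts before correction, with 1 mean for each combination of batch and group. On simulated data with known interactions, 54 of 100 genes at a log2 difference of 0.4 and 87 of 100 at 0.8 were called, with 8 unchanged genes, of 14795 tested. The simulated counts held no batch effect and no batch correction, so they do not give the rate of false calls in the corrected table.

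The genes named were the 10 with the smallest p in each direction, the 5 with the smallest p of the opposed class and of the 11% O2 alone class, up to 3 called members of each list, and genes named by the study with *Th*. Other called members of the heat shock list, and any gene said to be so, were added after their values were seen, and 1 gene that the rule picks is not reported here. The comparison, the gene lists and the classes were chosen with earlier results of these data known. Alternatives used DESeq2 (version 1.42.0), limma (version 3.58.1) on log2(TPM + 1) and log2(TPM + 0.1), ComBat-seq from sva (version 3.50.0), other batch handling, filters and subsets of mice, and bins of GC content or length, the last chosen after seeing the data. Coordinates are GRCm38.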

Additional observations from a re-analysis of the deposited data

Results flagged for a closer look

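The monomer and PFF groups at 11% O2 were checked for a mouse far from the others of its group. The groups at the higher oxygen level were not checked. Of the 100 gene and group pairs checked, 5 stood out, and chance gives about 1 in 20. *Dedd2* was 19.0 TPM in PFF replicate 7 at 11% O2, against 17.3 in the next mouse. *Aif1* was 44.9 TPM in PFF replicate 8 at 11% O2, against 30.3. *Adm* was 14.5 TPM in PFF replicate 6 at 11% O2, against 9.97, and *Slc16a3* was 14.8 TPM in PFF replicate 9 at 11% O2, against 11.7. *Eln* was 17.2 TPM in monomer replicate 10 at 11% O2, against 8.0, and its call as a response at 11% O2 alone was held in 22 of 42 fits without 1 mouse.

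The PFF response differed between oxygen levels, by the test of the interaction, for 318 genes, 39 of them named here by the rule. Of the lost responses that were lower with PFF at 21% O2, the interaction was 0.83 for *Ccdc117*, 0.77 for *Dnajb1*, 0.70 for *Ahsa2*, 0.70 for *P4ha1*, 0.42 for *Dedd2*, 0.52 for *P4ha2*, 1.00 for *Nr4a3*, 0.39 for *Errfi1*, 1.30 for *Egr4*, 0.48 for *Hspa5*, 0.64 for *Creld2*, 0.34 for *Tsc22d3* and 0.36 for *Xbp1*. Of those that were higher, it was -0.94 for *Lrrc29*, -0.69 for *Cirbp*, -0.80 for *Tgfbr3l*, -0.999 for *Arl5c*, -0.50 for *Prkab1*, -0.71 for *Opalin*, -0.31 for *Rbm3* and -0.37 for *Tfrc*. Among these, *Xbp1* kept its call in 14 of 42 fits without 1 mouse and *Tsc22d3* in 19.

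Of the opposed responses, the interaction was 0.50 for *Vapa*, 0.46 for *Josd1*, 0.57 for *Hnrnpab*, 0.53 for *Rab5if*, 0.73 for *Gnas*, 0.47 for *Pnrc1* and 0.56 for *Bloc1s4*, which were lower with PFF at 21% O2. It was -1.20 for *Egf*, -0.47 for *Ccdc9b*, -0.47 for *Cwc22*, -0.81 for *Lefty1*, -0.39 for *Thap3*, -0.33 for *Mog* and -0.39 for *Pdgfrb*, which were higher. Of the responses at 11% O2 alone, it was 0.31 for *Cmas*, 0.35 for *Dcun1d5*, -0.32 for *Ndor1* and -1.08 for *Eln*.

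Genes outside the corrected table, which holds protein-coding genes, were tested on counts before correction with batch as a covariate. Of 3499 such genes, 70 were called (2%), against 1.49% of the genes inside the table, and 67 of the 70 were more negative at 11% O2. The direction of the other genes among the 3499 was not examined, so the lean of the 70 cannot be set against theirs. The 5 with the smallest p were *Gm46658* (-1.94), *Gm36855* (-1.24), *2900052L18Rik* (-0.87), *Gm48804* (-0.85) and *Gm33858* (-2.31).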

How the results depend on the processing

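The number of called genes changed with the handling of batch and with the mice included. It was between 267 and 387 under DESeq2 (376), its size factors (313), no filter (267), an adjusted p alone (344), no batch term on counts before correction (368), limma (311, 314 and 311), and bins of GC content (387) or length (325). ComBat-seq with the 4 groups kept gave 318 genes. A batch term on uncorrected counts gave about 2.1e+02 genes, 96 more positive and 109 more negative, with 61 opposed and 3 at 11% O2 alone. With all 48 mice there were 152, 71 more positive and 81 more negative, with 80 lost and 55 opposed. ComBat-seq with additive covariates gave 84, 33 more positive and 51 more negative, with 55 lost, 20 opposed and 3 at 11% O2 alone. Batch 1 alone gave 11, all 11 more positive and 0 more negative, with 3 lost, 8 opposed, 0 at 11% O2 alone, and 9 called at 21% O2. Without batch 2 there were 17, 16 more positive and 1 more negative, with 7 lost, 10 opposed, 0 at 11% O2 alone and 36 at 21% O2. Without batch 3 there were 57, 29 more positive and 28 more negative, with 16 lost, 39 opposed, 2 at 11% O2 alone and 251 at 21% O2. These 3 subsets have fewer mice, and for the other settings the cause was not tested. Responses at 11% O2 alone numbered 8 under DESeq2, 3 with a mean TPM of at least 1 and 2 with length bins, and DESeq2 called 1 gene at 11% O2. None of the 318 called genes was called with the opposite sign, except 2 whose sign alone turned in batch 1. Leaving out 1 mouse gave 243 to 390 genes, 138 to 220 lost, 69 to 156 opposed (156 without monomer replicate 5 at 11% O2), 2 to 11 at 11% O2 alone, and 0 to 1 called at 11% O2 (1 without monomer replicate 11 at 11% O2). The study's methods state a randomized matched-pairs design, and the main test did not use pairs. Over 54 same-numbered pairs the median correlation was 0.00333, the highest was 0.681 and 21 were above 0.1. Of 42 mice, 6 correlated best with their own number. Some same-numbered mice came from different batches, so these correlations cannot settle whether the numbers pair the mice. The replicate block gave 292 genes, 129 lost and 132 opposed.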

Other observations

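Among genes outside the corrected table, *Gm46658* (chr19:5072229-5075257), an antisense gene, ran from 0.973 to 2.42 CPM (counts scaled to a fixed total per mouse; median 1.69) in monomer and from 2.24 to 8.44 (median 6.02) in PFF mice at 21% O2. At 11% O2 it ran from 4.52 to 7.39 (median 5.63) in monomer and from 3.99 to 7.38 (median 5.45) in PFF mice. The groups overlapped at both oxygen levels, although barely at 21% O2. *Gm36855* (chr9:43506551-43521004), a lincRNA, had medians of 8.92 and 16.4 CPM at 21% O2 and of 14.2 and 12.0 at 11% O2. Both stood lowest in monomer mice at 21% O2, as did the lost protein-coding genes that were higher with PFF. Since no strand setting is stated for the counting, reads of an antisense gene and of its partner cannot be told apart.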
